A study of Mus musculus with 186 samples.

Results

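The genes described here are 10 serotonin receptor genes of the mouse: Htr1a, Htr1b, Htr1d, Htr2a, Htr2c, Htr3a, Htr4, Htr5a, Htr6 and Htr7. They were followed through 6 brain regions, 2 ages and 3 Akap11 genotypes by bulk RNA sequencing, and are 10 of the 28338 gene symbols in the deposited table. The table holds 14 symbols of this family, and the other 4 were treated as pathway genes. The genes were selected by name with the knockout values of the striatum in view, where Htr4 falls strongly, so the knockout against wild type differences in striatum are given below as a description. Where values there are counted as past the threshold of a fit, the count describes the fit and supports nothing.

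Serotonin reaches most of the forebrain from neurons of the raphe nuclei, and the receptors that read it differ in what they do inside the cell. Htr4, Htr6 and Htr7 couple to Gs, which raises cyclic AMP and so activates protein kinase A (PKA). Htr1a, Htr1b, Htr1d and Htr5a couple to Gi or Go and lower cyclic AMP, Htr2a and Htr2c couple to Gq and phospholipase C, and Htr3a forms a cation channel. AKAP11 is an A-kinase anchoring protein, a scaffold that tethers PKA, which is the enzyme that the Gs-coupled receptors drive. Htr1b and Htr1d are known as release-limiting receptors on nerve endings, Htr2a as the target of classical psychedelics in cortex, and Htr4 and Htr6 as receptors of striatal projection neurons, among other cells.

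The study sequenced RNA from mice of 3 labelled genotypes, Akap11 -/- (KO), Akap11 +/- (HET) and wild type (WT), with no other allele, treatment or agent named for any group. The regions were striatum, thalamus, hippocampus, substantia nigra and the prefrontal and somatosensory cortex, at 4 and at 12 weeks of age. Of the 36 groups of region, age and genotype, 30 held 5 libraries and 6 held 6, for 186 libraries in all, and libraries are named below by genotype and the replicate number in the labels. The labels do not give the strain, the sex or how the allele was made, and do not say that replicates are separate animals, so p-values measure the spread between these libraries only.

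The total per library ran from 20.8 to 73.3 M with a median of 45.1 M, and 3 counts, taken here as the floor of detection, correspond to 0.0395 to 0.145 counts per M (CPM). The KO level of Akap11 was lower than any WT value in each of the 12 pairings of region and age, at 5.08% to 7.98% of the WT mean. In 4-week striatum, KO 51, KO 161, KO 163 and WT 92 stood apart: the summed CPM of 8 cortical excitatory neuron markers was 738 to 1541 in these 4 libraries, and 17.3 to 40.9 in the other KO and WT libraries. In 4-week thalamus, WT 913 and WT 914 stood apart, with thalamic marker sums of 2126 and 2396 CPM where the other WT libraries reached 3615 to 5201 CPM, and WT 23, at 4467 CPM, was left out together with them because earlier work on these data had done so. In 4-week substantia nigra, WT 92, WT 42, KO 44 and KO 91 stood apart, with dopamine neuron marker sums of 245 to 429 CPM where the others reached 1084 to 5158 CPM. The values that rest on these libraries are given with and without them where they are described. In bulk tissue, fewer cells that carry a receptor and less of its RNA per cell cannot be told apart.

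In WT tissue the region of highest level was the same at both ages for 10 of 10 receptor genes, and several genes shared a region. The edgeR quasi-likelihood test over the 6 regions called 10 of 10 genes at 4 weeks and 10 of 10 at 12 weeks, where 85.6% and 93.4% of all genes tested were called, so differing by region was the rule among genes and not particular to these. The largest Benjamini-Hochberg adjusted p was 0.0015 at 4 weeks, for Htr1a, and 3.83e-14 at 12 weeks, also for Htr1a. The same replicate numbers recur between regions, and this test treated all libraries as independent. Ordered by mean, neighbouring regions overlapped in their libraries in 34 of 50 pairs at 4 weeks and 24 of 50 at 12 weeks. The plot of wild-type levels shows all libraries.

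**Figure D1:**
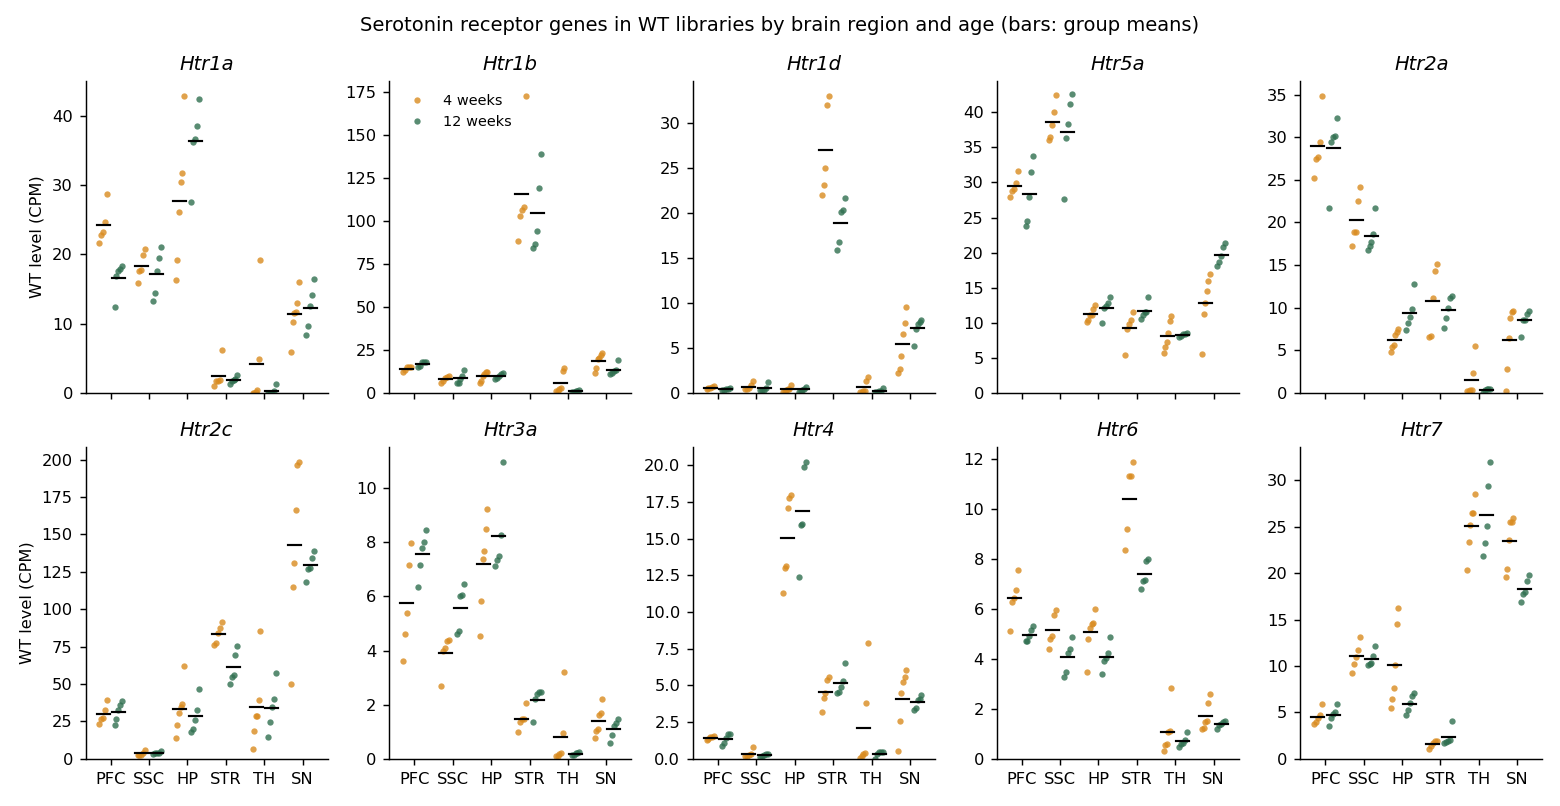
Level of each of the 10 receptor genes (vertical axis, CPM) in the WT libraries of hippocampus (HP), striatum (STR), thalamus (TH), substantia nigra (SN) and the prefrontal (PFC) and somatosensory (SSC) cortex, with 1 point per library, a color for each age (4 and 12 weeks) and bars at the group means. Htr1a, Htr3a and Htr4 are highest in HP, Htr1b, Htr1d and Htr6 in STR, Htr7 in TH, Htr2c in SN, Htr2a in PFC and Htr5a in SSC, and single 4-week TH libraries lie far above the rest for Htr1a and Htr4.

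Among the Gs-coupled receptors, Htr4 (chromosome 18, 62324204 to 62496577, plus strand, on GRCm38) was highest in hippocampus. Its hippocampal level in the 5 WT libraries at 12 weeks was 12.4, 16.0, 16.0, 19.9 and 20.2 CPM, above every library of the other 5 regions. Striatum followed at 5.16 ± 0.827 CPM (SD, n = 5) and substantia nigra at 3.85 ± 0.433 CPM (n = 5), and these did not overlap each other, at 4.47 to 6.52 and 3.36 to 4.38 CPM. Prefrontal cortex held 1.35 ± 0.358 CPM (n = 5), while thalamus and somatosensory cortex overlapped each other at means of 0.356 and 0.264 CPM.

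Htr6 (chromosome 4, 139061108 to 139075570, minus strand) was highest in striatum, with 6.81, 7.11, 7.14, 7.91 and 8.01 CPM in the WT libraries at 12 weeks. Every one of these lay above the 4.70 to 5.32 CPM of Htr6 in prefrontal cortex, which in turn overlapped hippocampus at 3.40 to 4.87 CPM and somatosensory cortex at 3.29 to 4.87 CPM. Htr7 (chromosome 19, 35958734 to 36057507, minus strand) had the opposite distribution, with thalamus first and striatum last. Its 12-week thalamic WT libraries held 21.8, 23.2, 25.1, 29.4 and 32.0 CPM, all above the 16.9 to 19.8 CPM of substantia nigra. At 4 weeks these regions overlapped, at 20.3 to 28.6 and 19.6 to 25.9 CPM of Htr7, and striatum was lowest at 1.62 ± 0.378 CPM (n = 5).

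Among the Gi-coupled receptors, Htr1a (chromosome 13, 105443639 to 105448122, plus strand, with a single exon) was highest in hippocampus, at 27.5, 36.2, 36.7, 38.6 and 42.4 CPM in the 12-week WT libraries. These lay above all libraries of somatosensory and prefrontal cortex, whose Htr1a means of 17.1 ± 3.31 and 16.6 ± 2.38 CPM (SD, n = 5 each) overlapped. At 4 weeks the hippocampal Htr1a libraries spread from 16.3 to 42.9 CPM and overlapped prefrontal cortex at 21.6 to 28.7 CPM. Striatum, at 1.89 ± 0.484 CPM, and thalamus, at 0.294 ± 0.517 CPM, held little Htr1a at 12 weeks.

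Htr1b (chromosome 9, 81628291 to 81633828, minus strand) and Htr1d (chromosome 4, 136423524 to 136444398, plus strand) were both striatal. Htr1b in 12-week WT striatum was 84.0, 86.2, 93.9, 119 and 139 CPM, and its mean in the next region, prefrontal cortex, was 16.8 ± 1.47 CPM (n = 5). An antisense gene, D430036J16Rik, overlaps Htr1b and reached 17.0 CPM at most, and because strand use in the counting is not stated, reads of the pair cannot be assigned with certainty. Htr1d in 12-week WT striatum was 15.9, 16.8, 20.1, 20.4 and 21.7 CPM. Substantia nigra was the only other region with a mean above 1 CPM of Htr1d, at 7.19 ± 1.16 CPM at 12 weeks (n = 5) and 5.46 ± 2.94 CPM at 4 weeks (n = 6).

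Htr5a (chromosome 5, 27842149 to 27855088, plus strand) was highest in cortex. The 12-week WT libraries held 27.6, 36.4, 38.3, 41.2 and 42.6 CPM in somatosensory cortex and 23.8, 24.6, 27.9, 31.6 and 33.7 CPM in prefrontal cortex. These overlapped at 12 weeks, whereas at 4 weeks the somatosensory libraries, at 36.1 to 42.5 CPM, all exceeded the prefrontal libraries, at 28.0 to 31.7 CPM. Htr5a was also the most even of the 10 genes across regions, from 37.2 ± 5.89 CPM in somatosensory cortex to 8.27 ± 0.223 CPM in thalamus at 12 weeks (SD, n = 5 each).

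Among the Gq-coupled receptors, Htr2a (chromosome 14, 74640840 to 74709494, plus strand) was highest in prefrontal cortex, with 21.6, 29.5, 30.1, 30.1 and 32.3 CPM in the 12-week WT libraries. Somatosensory cortex followed at 16.7 to 21.7 CPM and touched that range through the single lowest prefrontal library, WT 2. Striatum, hippocampus and substantia nigra overlapped one another at Htr2a means of 9.74, 9.39 and 8.50 CPM, and thalamus held 0.325 ± 0.179 CPM (n = 5). Htr2c (chromosome X, 146962513 to 147197277, plus strand, hosting a snoRNA and several microRNA genes in its introns) was highest in substantia nigra at 118, 127, 128, 135 and 139 CPM in the same libraries. Striatum followed at 49.9 to 75.3 CPM of Htr2c and somatosensory cortex was last at 3.43 to 5.19 CPM. Htr2c is also known as a gene of the choroid plexus, whose marker levels are given beside its results below.

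The channel gene Htr3a (chromosome 9, 48899213 to 48911099, minus strand, overlapped by the antisense gene Gm32335) was highest in hippocampus, at 7.12, 7.35, 7.49, 8.29 and 11.0 CPM in the 12-week WT libraries. Prefrontal cortex, at 6.35 to 8.44 CPM, overlapped that range, and thalamus was last at 0.191 ± 0.0470 CPM (n = 5). Divided by the length of the longest coding transcript, which puts genes on one scale, the leading receptor of 12-week WT tissue was Htr2c in substantia nigra at 26.5 CPM per kb. It was Htr1b in striatum at 22.1 CPM per kb, with Htr2c at 12.5 CPM per kb behind it. It was Htr7 in thalamus at 8.54, Htr1a in hippocampus at 8.09, Htr5a in somatosensory cortex at 6.93 and Htr2c in prefrontal cortex at 6.41 CPM per kb.

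The 250 bases before the transcription start are shown for 3 of the genes: Htr6 and Htr2c, whose levels differed in opposite directions in KO striatum, and Htr7, which held the only motif matches among the members. Sequences are from RefSeq on GRCm38.p6, read 5′ to 3′ in the direction of transcription. Capitals mark a stretch in Htr7 where a match to the EGR site GCGTGGGCG, on the opposite strand, overlaps a match to the cyclic AMP response element half-site TGACG, also on the opposite strand. The windows lie at chr4:139075571-139075820 on the minus strand for Htr6, chrX:146962263-146962512 on the plus strand for Htr2c and chr19:36057361-36057610 on the minus strand for Htr7.
Htr6: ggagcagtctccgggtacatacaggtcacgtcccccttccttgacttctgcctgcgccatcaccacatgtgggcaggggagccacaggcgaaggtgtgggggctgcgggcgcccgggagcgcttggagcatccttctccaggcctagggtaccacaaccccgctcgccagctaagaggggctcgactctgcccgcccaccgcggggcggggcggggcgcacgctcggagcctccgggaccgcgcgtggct
Htr2c: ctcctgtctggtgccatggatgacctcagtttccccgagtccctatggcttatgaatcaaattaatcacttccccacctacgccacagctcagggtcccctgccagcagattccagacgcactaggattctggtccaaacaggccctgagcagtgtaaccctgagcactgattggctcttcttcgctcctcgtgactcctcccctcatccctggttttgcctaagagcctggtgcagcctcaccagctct
Htr7: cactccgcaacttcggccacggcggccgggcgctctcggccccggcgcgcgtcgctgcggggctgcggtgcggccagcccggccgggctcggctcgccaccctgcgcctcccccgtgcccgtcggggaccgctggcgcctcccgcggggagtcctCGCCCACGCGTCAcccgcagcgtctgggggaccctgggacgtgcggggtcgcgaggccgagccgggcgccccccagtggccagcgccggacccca
The 2 Htr7 matches begin 95 and 87 bases before the RefSeq start that sets the window. The GENCODE start of Htr7 differs and lies within the window, at 36057507, so both matches fall inside the gene as GENCODE places it. Windows were found for 8 of the 10 genes. On both strands, the full cyclic AMP response element TGACGTCA was in 0 of the 8 and in 1.55% of the 32851 windows of all genes. The half-site TGACG, which the full element contains, was in 1 of the 8 and in 17.8% of all windows, and the EGR site was in 1 of the 8 and in 0.536% of all windows. The G and C content was 82.0% for Htr7, 70.8% for Htr6 and 55.6% for Htr2c, against a median of 52.4% over all windows. A match here describes letters in the window and is not evidence of binding.

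Turning to the knockout striatum, the contrast that the choice of genes used, the mean Htr4 level was 13.4% of the WT mean at 4 weeks and 38.1% at 12 weeks. At 4 weeks the 5 KO libraries held 0.432, 0.558, 0.561, 0.603 and 0.889 CPM of Htr4, from 16 to 32 expected counts each. The WT libraries held 3.20, 4.16, 4.46, 5.40 and 5.57 CPM, and the HET libraries 2.97, 3.72, 4.23, 4.35 and 7.31 CPM. Every KO library lay below every WT and HET library, and WT and HET overlapped.

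At 12 weeks the KO libraries held 1.12, 1.24, 1.73, 2.84 and 2.90 CPM of Htr4. The WT libraries held 4.47, 4.58, 4.93, 5.33 and 6.52 CPM, and the HET libraries 4.06, 4.34, 5.04, 5.11 and 6.27 CPM. The groups KO and WT again did not overlap, and the HET mean stood at 96.1% of WT, after 99.0% at 4 weeks. The log2 fold change of KO against WT was -2.90 (SE 0.26) at 4 weeks and -1.40 (SE 0.24) at 12 weeks. Without the 4 libraries that stand apart the 4-week value was -2.71, and leaving out any single library gave -3.08 to -2.79 at 4 weeks and -1.58 to -1.26 at 12 weeks.

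**Figure D2:**
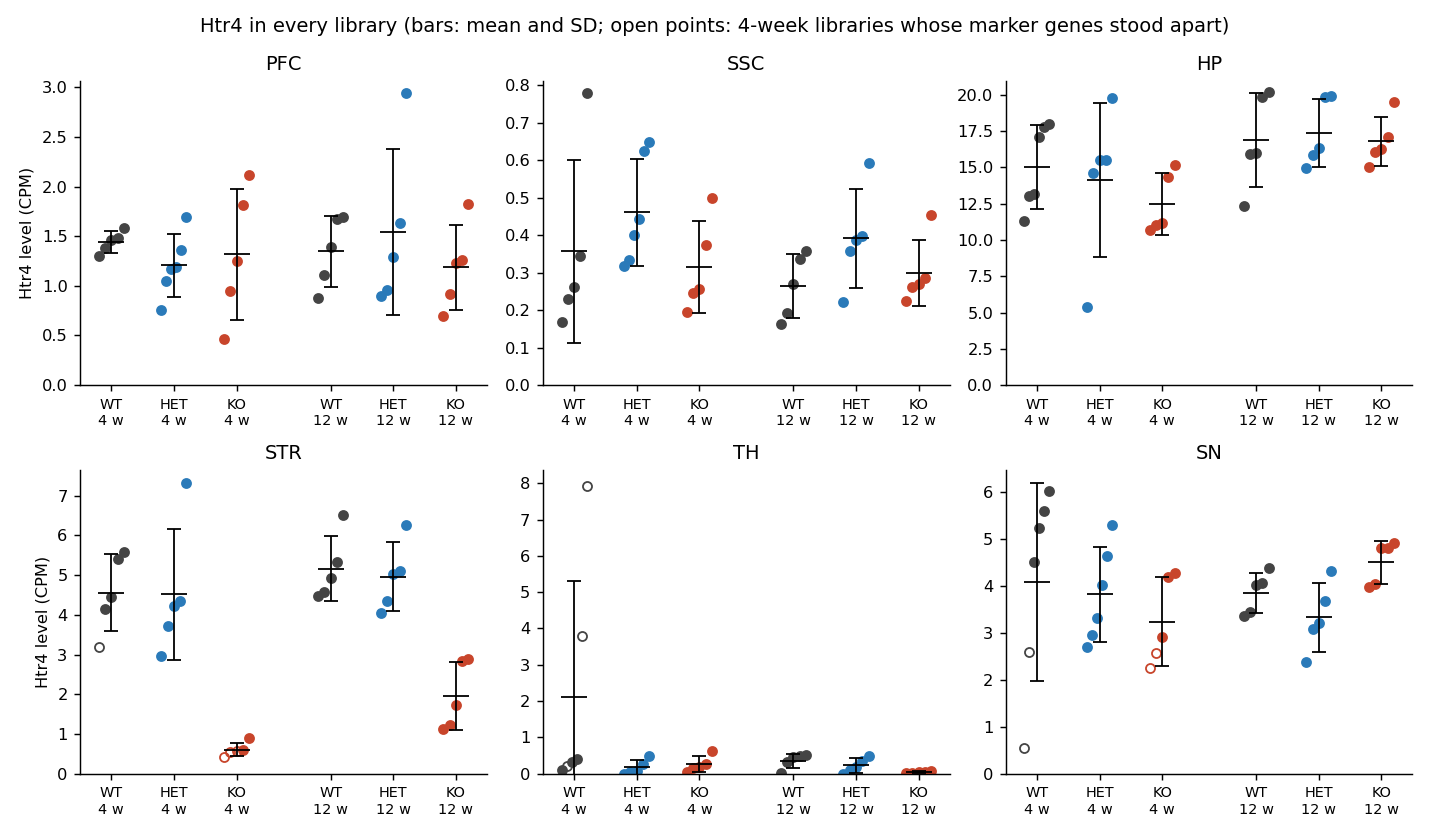
Htr4 level (vertical axis, CPM) in every library of the 6 regions by genotype and age (w, weeks), with 1 point per library, bars for the mean and SD and open points for the 4-week libraries that stand apart. In striatum (STR) the KO libraries sit at 0.432 to 0.889 CPM at 4 weeks and 1.12 to 2.90 CPM at 12 weeks, below all WT and HET libraries, while KO and WT overlap in hippocampus (HP) at both ages.

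Of the 20 striatal values for the 10 genes, 4 lay past the threshold (adjusted p under 0.05) in the edgeR fit: Htr4 at both ages and Htr6 at 4 weeks, which were lower, and Htr2c at 12 weeks, which was higher. In DESeq2 there were 11 of 20, namely Htr1a, Htr3a and Htr7 (higher) and Htr1b, Htr1d, Htr4 and Htr6 (lower) at 4 weeks, and Htr2c (higher) and Htr1d, Htr4 and Htr6 (lower) at 12 weeks. Across all genes tested in the same edgeR fits, 3.35% were called at 4 weeks and 4.42% at 12 weeks. These shares belong to edgeR and are no measure for the DESeq2 count, beside which no share of all genes is given. Nothing is read from these counts, since this contrast chose the genes. The median log2 fold change of the 10 genes was 0.26 at 4 weeks, where that of all genes was -0.00. Without the 4 libraries that stand apart it was -0.05, where that of all genes was -0.02, so its sign turned. The median was -0.14 at 12 weeks, where that of all genes was 0.01. The summed CPM of 8 striatal projection neuron markers in 4-week KO 161, KO 51 and KO 163 was 6150, 6622 and 9169, below the 9948 to 18352 of the WT libraries. KO 932 and KO 12 held 13365 and 19393. This list was lower in KO for 8 of 8 members, with a median log2 fold change of -0.33 and 0 called by edgeR. Its part in the 4-week values of Htr6, Htr1d and Htr1b given below was not tested.

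Htr6, the Gs-coupled receptor with its highest WT level in striatum, was also lower. At 4 weeks the KO libraries held 5.53, 6.14, 6.86, 7.58 and 7.89 CPM of Htr6, all below the WT values of 8.35, 9.20, 11.3, 11.3 and 11.9 CPM, and HET libraries ran from 8.64 to 12.2 CPM. At 12 weeks KO held 4.45, 5.57, 6.18, 6.39 and 7.12 CPM and WT 6.81, 7.11, 7.14, 7.91 and 8.01 CPM, which overlapped through KO 1. The log2 fold change of Htr6 was -0.61 (SE 0.13) at 4 weeks and -0.33 (SE 0.10) at 12 weeks. The 4-week value was -0.68 without the libraries that stand apart, and it did not pass the threshold without WT 142 (-0.57), WT 914 (-0.58) or WT 42 (-0.58). Htr7, the weakest of the Gs-coupled genes in this region, went the other way at 4 weeks, with 2.05 to 3.16 CPM in KO and 1.07 to 1.97 CPM in WT, a log2 fold change of 0.57 (SE 0.18; 0.34 without the libraries that stand apart). At 12 weeks its log2 fold change was -0.14.

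The Gi-coupled pair with high striatal levels was lower on average in KO at both ages. Htr1d at 4 weeks was 8.88, 11.6, 14.8, 20.2 and 22.2 CPM in KO, and 22.0, 23.2, 25.1, 32.0 and 33.1 CPM in WT. The groups overlapped only through KO 12 and WT 913, and the 3 lowest KO libraries were the 3 that stand apart. The log2 fold change of Htr1d was -0.80 (SE 0.21), or -0.42 without the libraries that stand apart. At 12 weeks it was -0.41 (SE 0.12), with KO libraries at 10.5 to 16.7 CPM and WT libraries at 15.9 to 21.7 CPM. Htr1b at 4 weeks was 38.8 to 98.2 CPM in KO and 88.0 to 173 CPM in WT, a log2 fold change of -0.67 (SE 0.22; -0.29 without the libraries that stand apart), and at 12 weeks its log2 fold change was -0.13.

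Htr2c, which binds serotonin and signals through Gq, was the only gene past the threshold with higher KO levels at 12 weeks. Htr1a and Htr2a were also higher on average there, each with a log2 fold change of 0.19, and were not past it. The KO libraries held 78.3, 88.3, 89.9, 93.3 and 99.4 CPM of Htr2c, all above the WT values of 49.9, 55.0, 56.2, 69.2 and 75.3 CPM. HET libraries ran from 59.3 to 72.8 CPM, within the WT range, and the log2 fold change of KO against WT was 0.54 (SE 0.10). Summed CPM of 8 choroid plexus markers was 18.0 to 41.5 in KO and 18.3 to 25.6 in WT, with 0 of the 8 at 0, and 0 of the 5 markers tested were called by edgeR. With the choroid plexus score in the fit, the Htr2c value was 0.52. At 4 weeks the KO libraries of Htr2c spread from 64.2 to 118 CPM around WT libraries of 76.1 to 91.2 CPM, a log2 fold change of 0.07 (SE 0.13), which became 0.35 without the libraries that stand apart.

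Htr1a was high in 4-week KO striatum only in the libraries that stand apart. KO 12 and KO 932 held 1.35 and 2.36 CPM of Htr1a, next to WT values of 1.04, 1.64, 1.68 and 1.85 CPM. KO 163, KO 51 and KO 161 held 7.13, 17.0 and 22.0 CPM, and WT 92 held 6.24 CPM, the highest of the WT libraries. The log2 fold change was 2.01 (SE 0.63) with all libraries and 0.25 without those 4, and at 12 weeks it was 0.19. Htr3a, Htr5a and Htr2a, also higher in cortex than in striatum, gave 4-week log2 fold changes of 0.85, 0.54 and 0.45, and 0.41, 0.18 and -0.29 without those libraries. The cortical marker list had 8 of 8 members higher in KO at 4 weeks, with a median log2 fold change of 2.16, 0 called by edgeR and 0 of 8 at 0 in any group. Its part in the other striatal results was not tested beyond these values and the fit with the cortical score as a covariate, in which Htr4 stood at -2.62 at 4 weeks and -1.37 at 12 weeks. At 12 weeks the cortical marker sum was 18.5 to 24.3 CPM in KO and 13.0 to 19.2 CPM in WT, and the striatal projection neuron marker sum was 9539 to 12243 CPM in KO and 9624 to 13746 CPM in WT. Of those 8 striatal markers, Rgs9 (-0.49) and Pde10a (-0.43) were called lower at 12 weeks.

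**Figure D3:**
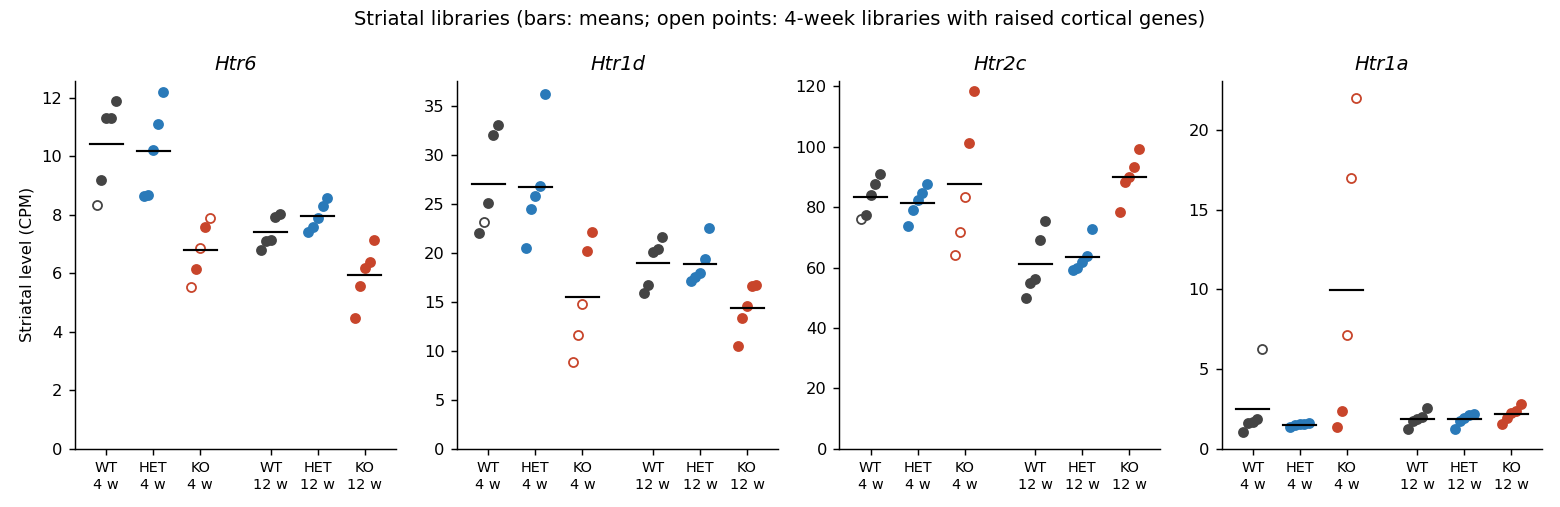
Striatal level (vertical axis, CPM) of Htr6, Htr1d, Htr2c and Htr1a in each WT, HET and KO library at 4 and 12 weeks (w), with 1 point per library, bars at the group means and open points for the 4-week libraries with raised cortical markers. Htr6 in KO is separate from WT at 4 weeks, Htr2c in KO is separate at 12 weeks, and the 3 highest Htr1a points of 4-week KO are open.

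Outside the striatum, which the choice of genes did not use, the edgeR quasi-likelihood test with Benjamini-Hochberg adjustment called 0 of 97 KO against WT values. DESeq2 also called 0. The smallest adjusted p was 0.211, for Htr2a in 4-week prefrontal cortex. At an unadjusted p under 0.05 there were 19 of the 97 (19.6%, where all genes gave 7.16%), and 13 without the libraries that stand apart. The share of all genes called was itself small: for prefrontal cortex it was 0.0125% at 4 weeks and 0.0123% at 12 weeks, and for somatosensory cortex 0.0564% and 0.0252%. For hippocampus it was 0.00609% and 0.00608%, for thalamus 0.0128% and 0.0064%, and for substantia nigra 0.00617% and 0.0364%. The heat map of KO changes gives the value for each gene and region.

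**Figure D4:**
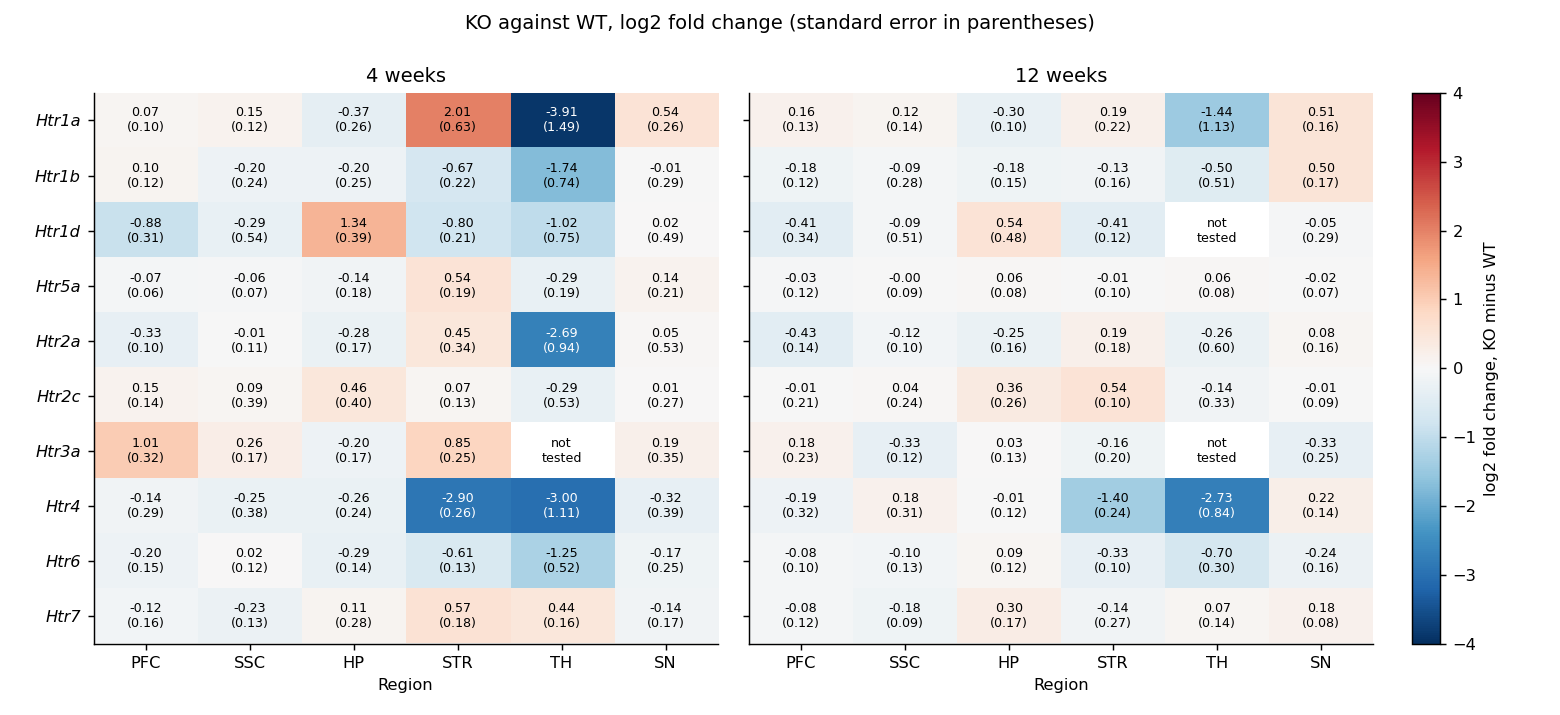
Log2 fold change of KO against WT (color and number, with the SE in parentheses) for the 10 genes (rows) in the 6 regions (columns) at 4 weeks (left) and 12 weeks (right). The values called in the edgeR fit are Htr4 in striatum (STR) at both ages, Htr6 there at 4 weeks and Htr2c there at 12 weeks, and of the large negative values of 4-week thalamus (TH), those of Htr1a, Htr1b, Htr2a and Htr4 become 1.26, -0.18, -0.11 and -0.03 without WT 913, WT 914 and WT 23, and that of Htr6 becomes -0.70.

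Htr4 in hippocampus, its region of highest level, overlapped between KO and WT at both ages. At 12 weeks the KO libraries held 15.0, 16.1, 16.3, 17.1 and 19.5 CPM, inside the WT range of 12.4 to 20.2 CPM, and the log2 fold change was -0.01 (SE 0.12). At 4 weeks KO held 10.7, 11.0, 11.2, 14.4 and 15.2 CPM and WT 11.3, 13.0, 13.1, 17.1, 17.8 and 18.0 CPM, which overlapped, with a log2 fold change of -0.26 (SE 0.24). In substantia nigra at 12 weeks Htr4 was 3.98 to 4.92 CPM in KO and 3.36 to 4.38 CPM in WT (log2 fold change 0.22, SE 0.14). In 12-week thalamus its fitted value was -2.73, which was not called. KO libraries held 1 to 4 expected counts, 4 of the 5 libraries under the floor of 3 counts, and reached 0.0873 CPM at most. The lowest WT library, WT 2, held 0.0191 CPM. The other WT libraries held 0.326, 0.447, 0.484 and 0.504 CPM, above every KO library, so KO and WT overlapped through WT 2 alone. Htr4 was thus lower on average in KO there, but with KO counts this low the size of the fold is not read. The difference between the striatal and the other effects was not tested.

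In prefrontal cortex Htr2a was lower in KO at both ages without passing the adjusted threshold. At 4 weeks the KO libraries held 18.9, 22.8, 23.0, 24.7 and 25.2 CPM of Htr2a, and the WT libraries 25.3, 27.4, 27.6, 29.4 and 34.9 CPM. The groups did not overlap, though the gap between the nearest libraries was small, and the log2 fold change was -0.33 (SE 0.10; edgeR quasi-likelihood, Benjamini-Hochberg adjusted p 0.211). At 12 weeks KO held 16.5, 20.4, 22.1, 23.6 and 23.7 CPM and WT 21.6, 29.5, 30.1, 30.1 and 32.3 CPM, a log2 fold change of -0.43 (SE 0.14; adjusted p 0.869). Here KO and WT overlapped through WT 2 alone.

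Htr3a, the channel gene, was on average higher in 4-week KO prefrontal cortex, at 6.90, 9.49, 11.7, 12.7 and 17.3 CPM against WT values of 3.62, 4.60, 5.37, 7.15 and 7.99 CPM. HET libraries covered both ranges, from 2.89 to 14.2 CPM, and the log2 fold change of KO was 1.01 (SE 0.32; edgeR quasi-likelihood, Benjamini-Hochberg adjusted p 0.222). Htr1d in the same tissue was 0.164 to 0.390 CPM in KO and 0.465 to 0.784 CPM in WT, a log2 fold change of -0.88 (SE 0.31; adjusted p 0.241), at levels near the floor. In substantia nigra at 12 weeks 2 Gi-coupled genes were higher on average. Htr1a held 15.3, 15.7, 17.5, 19.1 and 19.7 CPM in KO and 8.29, 9.70, 12.5, 14.1 and 16.4 CPM in WT, and Htr1b held 16.5, 17.1, 18.4, 20.5 and 23.2 CPM in KO and 11.0, 11.4, 12.4, 13.2 and 19.3 CPM in WT. Both overlapped WT through a single library, with log2 fold changes of 0.51 (SE 0.16) and 0.50 (SE 0.17) and adjusted p of 0.649 for each.

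In 4-week thalamus 5 genes had large negative KO values in the fit with all libraries, and 4 of them came close to 0 or changed sign without the WT libraries that stand apart. Htr1a in WT was 0, 0.0209, 0.0693, 0.368, 4.90 and 19.2 CPM, the last 2 being WT 914 and WT 913, and every KO library stayed under 1 CPM. Htr4 in WT was 0.0903, 0.208, 0.334, 0.397, 3.80 and 7.92 CPM, again ending with WT 914 and WT 913, and KO reached 0.626 CPM at most. The log2 fold changes of Htr1a, Htr1b, Htr2a, Htr4 and Htr6 were -3.91, -1.74, -2.69, -3.00 and -1.25 with all libraries. Without WT 913, WT 914 and WT 23 they were 1.26, -0.18, -0.11, -0.03 and -0.70, so Htr6 stayed lower on average. The median Htr6 level was 0.376 CPM in KO and 0.845 CPM in all 6 WT libraries, and these overlapped. WT 913 also held a hippocampal marker sum of 536 CPM, where the other WT libraries held 144 to 182 CPM. Htr7, the receptor with its highest level here, was 27.9, 30.7, 30.8, 31.9 and 48.9 CPM in KO and 20.3 to 28.6 CPM in WT, a log2 fold change of 0.44 (SE 0.16; 0.35 without those WT libraries) that was not called.

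In heterozygotes edgeR called 0 of 117 values over the 12 sets of region and age, and DESeq2 called 0. The smallest Benjamini-Hochberg adjusted p was 0.209, and 10 of the 117 (8.55%, where all genes gave 5.39%) had an unadjusted p under 0.05, or 6 without the libraries that stand apart. Among all genes the shares called at 4 and then 12 weeks were 0.00626% and 0.00613% for prefrontal cortex, 0.00627% and 0.00629% for somatosensory cortex, 0% and 0.00608% for hippocampus, 0.00648% and 0.0064% for striatum, 0.00639% and 0.0064% for thalamus, and 0% and 0.00606% for substantia nigra. In striatum the HET log2 fold change of Htr4 was -0.01 (SE 0.22) at 4 weeks and -0.05 (SE 0.23) at 12 weeks, and that of Htr2c was -0.03 (SE 0.13) and 0.05 (SE 0.10). Htr1a in 4-week hippocampus was 27.6, 30.4, 41.5, 53.3 and 64.8 CPM in HET and 16.3, 19.1, 26.1, 30.4, 31.8 and 42.9 CPM in WT, which overlapped, a log2 fold change of 0.65 (SE 0.26; adjusted p 0.701). Of the 10 values, 5 were thalamic at 4 weeks and shared the 2 high WT libraries: Htr1a stood at -4.60 and Htr4 at -3.62 with them, and at 0.56 and -0.66 without WT 913, WT 914 and WT 23.

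The KO difference was then compared between ages. Because this comparison contains the KO and WT libraries of striatum, its striatal values share the contrast that chose the genes and are given as a description. For Htr4 in striatum the log2 KO effect was 1.49 (SE 0.36) less negative at 12 than at 4 weeks, or 1.30 (SE 0.45) without the libraries that stand apart, and the KO mean stood at 0.609 ± 0.169 CPM at 4 weeks and 1.97 ± 0.854 CPM at 12 weeks (SD, n = 5 each). The WT means were 4.56 ± 0.970 and 5.16 ± 0.827 CPM (n = 5 each), so the KO level differed between the ages more than the WT level did. The striatal KO effect of Htr1a differed by -1.82 and that of Htr2c by 0.46 with all libraries, and by -0.06 and 0.18 without those 4.

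Over the 6 regions edgeR called 0 of 60 such values after Benjamini-Hochberg adjustment, and DESeq2 called 0. The smallest edgeR adjusted p was 0.434, for Htr4 in striatum, and outside striatum it was 0.636, for Htr7 in substantia nigra. Among all genes the share called was 0% as well, in any of the 6 regions. Unadjusted p-values fell under 0.05 for 10 of the 60 (16.7%, where all genes gave 5.21%), and for 7 without the libraries that stand apart. Of the 10, 6 were striatal and share the contrast that chose the genes, so nothing is read from the share of 16.7%. Outside striatum the values under 0.05 were Htr2a and Htr3a in thalamus (2.43 and 2.22), Htr3a in somatosensory cortex (-0.59) and Htr6 in hippocampus (0.38). Without WT 913, WT 914 and WT 23 the thalamic Htr2a value was -0.16, and Htr3a did not pass the filter on low counts.

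Between 4 and 12 weeks the WT levels themselves differed. The edgeR quasi-likelihood test called 14 of 60 values, 3 higher and 11 lower at 12 weeks, DESeq2 called 16, and edgeR called 12 without the libraries that stand apart. Across all genes the shares called were 19.1% for prefrontal cortex, 27.1% for somatosensory cortex, 17.7% for hippocampus, 18.5% for striatum, 22.6% for thalamus and 18.6% for substantia nigra. The receptor genes were called at 2 of 10 in both cortical regions, hippocampus and striatum, 1 of 10 in substantia nigra and 5 of 10 in thalamus, so outside thalamus their share was near or below that background. Age and the set of libraries sequenced for it cannot be told apart.

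Htr6 fell in 3 regions: striatum (log2 difference -0.46, SE 0.12, adjusted p 0.00662), prefrontal cortex (-0.36, SE 0.13, adjusted p 0.0416) and somatosensory cortex (-0.34, SE 0.12, adjusted p 0.0324), all by the edgeR quasi-likelihood test with Benjamini-Hochberg adjustment. In striatum the WT libraries ran from 8.35 to 11.9 CPM at 4 weeks and from 6.81 to 8.01 CPM at 12 weeks, with no overlap. The other 3 regions gave values of the same sign that were not called: -0.31 in hippocampus, -0.31 in substantia nigra and -0.64 in thalamus. The prefrontal call was lost without any 1 of WT 142, WT 23 or WT 92 at 4 weeks or WT 1, WT 2, WT 3 or WT 4 at 12 weeks (-0.39 to -0.30), and the somatosensory call without WT 23 or WT 92 at 4 weeks or WT 1 or WT 2 at 12 weeks (-0.30 to -0.28).

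Htr1a fell in prefrontal cortex, from 21.6, 22.8, 23.2, 24.6 and 28.7 CPM at 4 weeks to 12.4, 16.9, 17.5, 17.9 and 18.2 CPM at 12 weeks. The ages did not overlap, and the log2 difference was -0.54 (SE 0.12; edgeR quasi-likelihood, Benjamini-Hochberg adjusted p 0.00174). Htr2c fell in striatum, from 76.1, 77.4, 84.1, 87.8 and 91.2 CPM to 49.9, 55.0, 56.2, 69.2 and 75.3 CPM, again with no overlap (-0.42, SE 0.12; adjusted p 0.0159). That call was lost without WT 4 of 12 weeks (-0.36). The 12-week KO striatum, at 78.3 to 99.4 CPM of Htr2c, overlapped the 4-week WT range.

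Htr7 fell in hippocampus, from 5.48, 6.43, 7.58, 10.1, 14.5 and 16.3 CPM to 4.74, 5.24, 6.02, 6.73 and 7.08 CPM (log2 difference -0.75, SE 0.24; edgeR quasi-likelihood, adjusted p 0.0296). The ages overlapped, and the call was lost without WT 23 (-0.62) or WT 914 (-0.57) of 4 weeks, or WT 2, WT 3 or WT 4 of 12 weeks (-0.75 to -0.68). Of the 3 rises, Htr2a in hippocampus went from 4.74, 5.33, 5.56, 6.81, 7.08 and 7.46 CPM to 7.33, 8.17, 8.89, 9.80 and 12.8 CPM (0.60, SE 0.17; adjusted p 0.0123), a call lost without WT 5 of 12 weeks (0.47). Htr3a in somatosensory cortex went from 2.71, 3.98, 4.10, 4.34 and 4.38 CPM to 4.61, 4.73, 6.01, 6.04 and 6.45 CPM, with no overlap (0.52, SE 0.15; adjusted p 0.0109). Htr5a in substantia nigra went from 5.60, 11.2, 12.8, 14.5, 15.9 and 17.0 CPM to 18.1, 18.7, 19.5, 20.8 and 21.3 CPM, also with no overlap (0.61, SE 0.17; adjusted p 0.0125). The 2 lowest 4-week libraries there, WT 92 and WT 42, are among those that stand apart, and without them the Htr5a difference was 0.38 with an adjusted p of 0.0119.

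The 5 thalamic calls, all lower at 12 weeks, rested on WT 913 and WT 914 of 4 weeks. With all libraries the log2 differences were -3.76 for Htr1a, -2.59 for Htr1b, -2.23 for Htr2a, -2.10 for Htr3a and -2.61 for Htr4. Without WT 913, WT 914 and WT 23 they were 1.37 for Htr1a, -1.02 for Htr1b, 0.34 for Htr2a and 0.35 for Htr4, none called, and Htr3a did not pass the filter on low counts. Leaving out WT 913 alone ended 4 of the 5 calls, those of Htr1a (-1.82), Htr2a (-1.11), Htr3a (-0.76) and Htr4 (-1.47). The calls of Htr1a, Htr2a and Htr4 were also lost without some single 12-week WT libraries (Htr1a without WT 1, WT 2, WT 3 or WT 5, at -3.68 to -3.46; Htr2a without any of WT 1 to WT 5, at -2.37 to -1.93; Htr4 without any of WT 1 to WT 5, at -2.77 to -2.30), Htr2a and Htr4 without WT 914 (-2.06 and -2.38), and Htr3a without WT 2 or WT 3 of 12 weeks (-2.03 and -1.99). In striatum, leaving out WT 92 and the KO libraries that stand apart added calls for Htr1d (-0.54) and Htr3a (0.73).

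**Figure D5:**
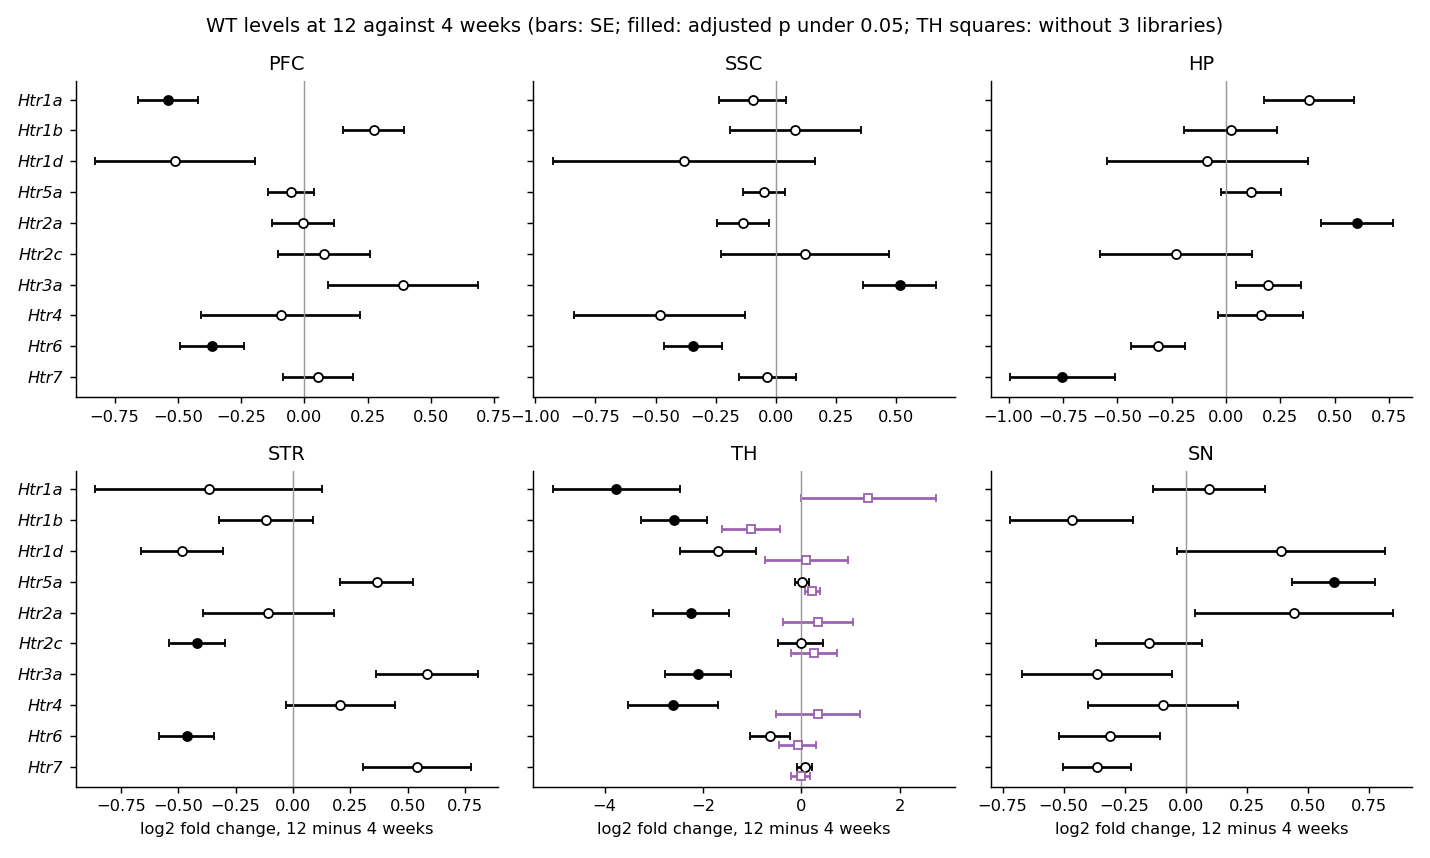
Log2 fold change of WT at 12 weeks against WT at 4 weeks (horizontal axis) for the 10 genes in the 6 regions, with circles for all libraries, bars for 1 SE, filled circles for an adjusted p under 0.05 and, in thalamus (TH), squares for the values without WT 913, WT 914 and WT 23. Htr6 lies below 0 in all 6 regions, and the thalamic values of Htr1a, Htr2a and Htr4 change sign without those 3 libraries.

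The other serotonin genes were taken as 3 lists: 4 further receptor genes (Htr1f, Htr2b, Htr3b, Htr5b), 14 genes of serotonin synthesis, transport and breakdown, and 21 genes of receptor coupling and receptor partners. Outside striatum the edgeR quasi-likelihood test called 0 of their 349 KO values, and DESeq2 called 1. At an unadjusted p under 0.05 there were 39 (41 of 350 without the libraries that stand apart), where all genes gave 7.16%. In HET over all regions edgeR called 0 of 418, and DESeq2 called 2. At an unadjusted p under 0.05 there were 29 (28 of 419 without those libraries), where all genes gave 5.39%. The numbers of all genes that DESeq2 called in these comparisons are given with the processing below. In KO striatum, the contrast used for the choice of genes, 12 of the 14 synthesis, transport and breakdown genes were tested. At either age 0 were called by edgeR, and 1 and 1 by DESeq2. At 4 and 12 weeks 3 and 2 had an unadjusted p under 0.05, where all genes gave 17.9% and 15.9%. The 1 and 2 further receptor genes tested there were not called.

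Of the 21 coupling and partner genes, 1 was called in KO striatum at 4 weeks and 4 at 12 weeks, beside the 3.35% and 4.42% of all genes. The list's median log2 fold change was 0.07 at 4 weeks and 0.03 at 12 weeks, where the medians of all genes were -0.00 and 0.01. Adarb1, an adenosine deaminase known for editing the Htr2c transcript, was higher at both ages, with log2 fold changes of 0.31 at 4 weeks (0.35 and not called without the libraries that stand apart) and 0.19 at 12 weeks. At 12 weeks Arrb1, a beta-arrestin that binds activated receptors, was higher by 0.27, and Kcnj9, a subunit of the potassium channels that Gi-coupled receptors open, by 0.29. S100a10, also called p11 and known to bind Htr1b and Htr4, was lower at 12 weeks, with a log2 fold change of -0.92 (SE 0.24). At 4 weeks its log2 fold change was 0.01 (SE 0.21). The 12-week S100a10 call was lost when only the 2 genotypes compared were fitted (-0.92). It was also lost with the cortical score (-0.86) or the choroid plexus score (-0.87) in the fit. The S100a10 level in KO was 4.53 to 5.47 CPM and in WT 6.08 to 18.0 CPM, the highest being WT 4, with HET at 7.32 to 10.5 CPM, so no KO library reached the lowest WT or HET library. Without WT 4 the S100a10 value was -0.54 (SE 0.12) and still called. Of 15 fits that each left out 1 library, the S100a10 call was lost in 6 (any of KO 1 to KO 5, or WT 2). The 12-week Adarb1 call was lost in 8 of 15 (HET 3, KO 1, KO 3, KO 4, KO 5, WT 1, WT 2 or WT 3). That of Arrb1 was lost in 7 of 15 (KO 1, KO 2, KO 5, WT 1, WT 3, WT 4 or WT 5). That of Kcnj9 was lost in 11 of 15 (HET 1, HET 3, HET 4, KO 1, KO 3, KO 4, KO 5 or WT 1 to WT 4). Over all 15 fits the values were 0.16 to 0.22 for Adarb1, 0.23 to 0.31 for Arrb1 and 0.24 to 0.33 for Kcnj9. The 4-week Adarb1 call was lost in 4 of 15 (KO 51, WT 142, WT 42 or WT 913), and all 15 fits gave 0.28 to 0.36. Fitting only the 2 genotypes compared also ended the Adarb1 calls of both ages. With the cortical score in the fit, or with no filter on low counts, the 12-week calls of Adarb1 and Kcnj9 were lost.

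Across the 12 WT groups of region and age, the pattern of mean log2(CPM + 1) of each receptor gene was compared with that of 15222 genes by Pearson correlation. The 12 points are group means, and the same replicate numbers recur between regions, so these are descriptions. Htr4 was most like BC067074 (0.981), Popdc3 (0.971) and Lman2l (0.967). Htr6 was most like Sh3pxd2a (0.990), Cacnb1 (0.986) and Actl6b (0.981), and Htr7 was most like Slc17a6 (0.990), the vesicular glutamate transporter of thalamic neurons, Flt3 (0.984) and Selo (0.977).

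Htr1a was most like Nptx1 (0.969), Tmem200a (0.960) and Sphkap (0.956), and Htr1b was most like Flad1 (0.974), Gprin3 (0.974) and Tac1 (0.972), the last encoding the precursor of substance P. Htr1d was most like Zfp467 (0.976), Gm38101 (0.975) and C130060K24Rik (0.973), and Htr5a was most like Mroh5 (0.981), Gm43194 (0.973) and Lurap1 (0.966). For Htr2a the nearest genes were Gpr26 (0.973), Zfp575 (0.973) and Pou2f2 (0.972), and for Htr2c they were Zcchc12 (0.963), 2610020H08Rik (0.954) and Gm5617 (0.954). For Htr3a they were Llgl2 (0.992), Slc18b1 (0.973) and Thpo (0.969).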

How the data were processed

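RNA was measured in 186 libraries, and per the labels' protocols 200 ng of total RNA entered the TruSeq Stranded mRNA kit after RNeasy Mini purification of tissue dissected from frozen brain. The authors deposited expected counts, meaning estimated counts per gene symbol that need not be whole; Salmon and mm10 are named in the submitters' processing notes, without a version, and neither the summarising step nor the use of strand is given in the sources used here. The counts were rounded to whole numbers. Of the table's columns, 0 were left without a sample. Groups came from the labels alone, and the 390 within-group pairs of libraries held 0 identical pairs.

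The WT, HET and KO libraries of a region and age shared 1 fit in edgeR 4.0.16 (R 4.3.3; TMM, filterByExpr by genotype, quasi-likelihood F test), adjusted by Benjamini-Hochberg over all genes tested and called at an adjusted p under 0.05. Ages were compared in 1 fit per region and WT regions in 1 fit per age. The standard error is the log2 fold change divided by the square root of F. Printed CPM use TMM over all 186 libraries, while fold changes come from the fits. The fits were tested on simulated data. The standard error includes the spread between libraries. The floor of 3 counts covers counting error only, and depth bears mostly on genes under 1 CPM. Positions come from GENCODE M21 on GRCm38.

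Named are the 10 receptor genes, up to 3 called genes of each pathway list per comparison by size of change, and the 3 genes most like each receptor gene among those reaching 1 CPM in a WT group. S100a10, Kcnj9 and Arrb1 fill that limit at 12 weeks, and Adarb1 there was added after its value was seen. The members and lists were chosen with earlier results of these data known. Alternatives were DESeq2 1.42.0, limma 3.58.1, relative log expression factors, no filter, 2-genotype fits, covariates, a replicate block and left-out libraries. Figures used Python 3.11.15 with pandas 2.3.3, numpy 2.4.6 and matplotlib 3.10.9. Htr4 and Htr3a have no sequence shown.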

Additional observations from a re-analysis of the deposited data

Results flagged for a closer look

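Single libraries that lay far from the rest of their group, by the gap to the nearest library over the range of the group (Dixon's 95% limit), were looked for in the 301 groups of 4 or more libraries with values. There were 25 such groups, or 8.31%, and chance alone marks about 1 in 20. No difference between groups met the rule for a closer look.

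In prefrontal cortex at 12 weeks, WT 2 was lowest for both Htr1a (12.4 CPM, the next 16.9 CPM) and Htr2a (21.6 CPM, the next 29.5 CPM). KO 2 was lowest for Htr2c (17.0 CPM, the next 32.3 CPM), KO 5 highest for Htr6 (5.55 CPM) and HET 3 lowest for Htr7 (3.79 CPM). WT 2 is the library through which Htr2a of KO and WT overlapped there.

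In somatosensory cortex at 4 weeks, HET 931 was lowest for Htr1a (15.6 CPM) and highest for Htr3a (6.80 CPM), HET 93 was highest for Htr1d (3.58 CPM) and lowest for Htr5a (30.4 CPM), and WT 142 was lowest for Htr3a (2.71 CPM). At 12 weeks HET 3 was lowest for Htr2a (15.1 CPM), HET 5 highest for Htr2c (9.90 CPM) and HET 4 highest for Htr7 (11.4 CPM).

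In striatum WT 92 of 4 weeks was highest for Htr1a (6.24 CPM, the next 1.85 CPM) and is one of the libraries with raised cortical markers. WT 914 was highest for Htr1b at 4 weeks (173 CPM, the next 108 CPM). At 12 weeks KO 4 was highest for Htr2a (17.0 CPM), WT 5 lowest for Htr3a (1.37 CPM) and WT 3 highest for Htr7 (4.10 CPM, the next 1.99 CPM).

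In thalamus at 4 weeks WT 913 was highest for Htr1a (19.2 CPM, the next 4.90 CPM) and Htr6 (2.85 CPM, the next 1.10 CPM), and KO 163 was highest for Htr7 (48.9 CPM, the next 31.9 CPM). In hippocampus at 4 weeks HET 941 was highest for Htr5a (24.3 CPM) and KO 161 lowest for Htr6 (3.07 CPM, the next 4.36 CPM). In substantia nigra at 12 weeks WT 1 was highest for Htr1b (19.3 CPM) and HET 2 lowest for Htr5a (15.8 CPM).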

How the results depend on the processing

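The counts of receptor genes called (0 for KO outside striatum, HET and the KO effect by age, 14 for WT by age, 20 for WT regions) stayed within 1.5 times under every alternative run. Leaving out each library in turn gave 10 to 16 for WT by age, and 0, 0, 0 and 20 for the others. Without the 3 thalamic libraries WT 913, WT 914 and WT 23, the WT age differences of Htr1a (1.37), Htr2a (0.34) and Htr4 (0.35) changed sign in thalamus. Htr6 in 4-week KO striatum, a described value, was no longer past the threshold when only the 2 genotypes compared were fitted (-0.61), and Htr1d there passed it with the cortical or the choroid plexus score in the fit. DESeq2 called more genes overall than edgeR: 483 against 29 for KO outside striatum, 502 against 10 for HET, and 27 against 0 for the KO effect by age; the cause was not tested.

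Deviations of same-numbered 12-week libraries correlated above 0.1 in 62 of 90 pairs (-0.275 to 0.749, median 0.166), so many but not all went together. Every pair did so in 2 of 18 sets of region and 2 genotypes, HET with KO in prefrontal cortex and WT with KO in hippocampus. The numbers were therefore not taken as pairing the libraries, except in that hippocampal comparison, where 0 of 10 members were called with the block and 0 without it. With the replicate block the members called were 0 for KO outside striatum and 0 for HET, and the 12-week striatal Htr4 value was -1.45. With the block Htr1d in 12-week KO striatum passed the threshold (-0.41), and all genes called went from 29 to 33 and from 10 to 12. The block was fitted at 12 weeks only, whereas the 29 and the 10 count both ages, so the effect of the block is not read from these counts. Genes under about 1 CPM, such as Htr1a, Htr3a and Htr4 in thalamus, rest on few counts.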

Other observations

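The 4-week substantia nigra differed between libraries in genes of serotonin neurons themselves. Tph2, the rate-limiting enzyme of serotonin synthesis in brain, ran from 0.658 to 161 CPM in KO, from 0.919 to 150 CPM in HET and from 0.245 to 5.41 CPM in WT. Slc6a4, the serotonin transporter, ran from 0.0692 to 98.4 CPM in KO, from 0.0224 to 82.6 CPM in HET and from 0 to 3.21 CPM in WT. At 12 weeks all 15 libraries of that region held 0.799 to 1.73 CPM of Tph2. The part of this in the receptor values of that region was not tested.

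Of the receptor genes outside the 10, Htr5b was nearly a hippocampal gene, with 6.97 ± 2.55 CPM (SD, n = 5) in 12-week WT hippocampus and means of 0.195 to 0.638 CPM in the other 5 regions. Htr1f was low throughout, with its highest 12-week WT mean, 2.12 ± 0.282 CPM (n = 5), in somatosensory cortex.

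Htr2c in hippocampus had KO log2 fold changes of 0.46 at 4 weeks and 0.36 at 12 weeks, neither called. The summed CPM of the choroid plexus markers there was 1081 to 2203 in KO and 18.4 to 2069 in WT at 4 weeks, and 1971 to 5016 in KO and 636 to 3593 in WT at 12 weeks. With the choroid plexus score in the fit, the 12-week Htr2c value was 0.16.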
